A study of Mus musculus with 6 samples.

Results

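The enzymes and regulators of cholesterol synthesis were examined in the liver of mice fed chow with polystyrene microplastic (PS-MP). The set holds 29 genes, chosen by name: 19 enzymes from acetoacetyl-CoA to cholesterol, the transcription factor gene Srebf2 with the sensing genes Scap, Insig1 and Insig2, the sterol transport genes Stard4, Npc1 and Npc2, and Nr1h3, Mylip and Soat1. These are 29 of 55802 gene symbols in the data, and all 29 passed the filter on low counts that left 17662 genes. PS-MP livers gave 3 libraries and control livers, from mice on normal chow, gave 3. All mice were C57BL/6 males, and no genetic change is labelled. The sample titles give 71 weeks for all of them, without saying whether this is age or time on the diet. The labels give neither particle size nor dose, nor do they say that each library is a separate mouse, so the tests measure the spread between libraries, which may in part be technical.

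Cholesterol is built from acetyl-CoA by way of mevalonate, isoprenoids, squalene and lanosterol, and the liver is a main site of this synthesis. The pathway is controlled by SREBP2, the product of Srebf2. When sterols in the endoplasmic reticulum run low, the escort protein SCAP takes SREBP2 to the Golgi, where it is cut, and the freed part enters the nucleus and switches on most enzymes of the pathway. When sterols are plentiful, INSIG proteins hold SCAP back, while the oxysterol receptor LXR, encoded in part by Nr1h3, drives sterol disposal. Of the 29 genes, 22 are counted here as SREBP2 targets: the 19 enzymes, Insig1, Stard4 and Srebf2 itself.

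SREBP2 binds sterol regulatory elements near the start of its target genes, often beside boxes bound by the factor NF-Y, so promoter sequence is shown for the 3 members with an unadjusted p under 0.05 between diets and for Srebf2. The sequences are the 250 bases before the gene start in RefSeq, on build GRCm38.p6, which is earlier than the build of the counts; the stretches are Hmgcs1 at chr13:119690101-119690350 (plus strand), Mvk at chr5:114444019-114444268 (plus strand), Nsdhl at chrX:72918271-72918520 (plus strand) and Srebf2 at chr15:82147019-82147268 (plus strand). Capitals mark matches, on either strand, to TCACNCCA, a short form of the sterol regulatory element, and to the NF-Y box CCAAT, which reads ATTGG on the other strand.
Hmgcs1: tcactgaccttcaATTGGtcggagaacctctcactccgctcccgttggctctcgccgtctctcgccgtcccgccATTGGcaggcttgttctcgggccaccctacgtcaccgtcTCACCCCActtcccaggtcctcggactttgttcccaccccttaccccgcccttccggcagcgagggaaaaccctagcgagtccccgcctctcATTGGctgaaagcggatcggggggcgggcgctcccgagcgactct
Mvk: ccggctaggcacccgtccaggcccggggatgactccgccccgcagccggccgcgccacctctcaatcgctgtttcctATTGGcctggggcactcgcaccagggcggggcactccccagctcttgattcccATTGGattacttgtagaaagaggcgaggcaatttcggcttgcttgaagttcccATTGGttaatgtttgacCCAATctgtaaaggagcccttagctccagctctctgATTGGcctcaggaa
Nsdhl: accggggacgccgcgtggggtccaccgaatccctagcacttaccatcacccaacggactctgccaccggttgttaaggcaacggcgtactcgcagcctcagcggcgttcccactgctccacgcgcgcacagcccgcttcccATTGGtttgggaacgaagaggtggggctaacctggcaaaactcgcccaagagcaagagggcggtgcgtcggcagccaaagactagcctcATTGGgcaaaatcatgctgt
Srebf2: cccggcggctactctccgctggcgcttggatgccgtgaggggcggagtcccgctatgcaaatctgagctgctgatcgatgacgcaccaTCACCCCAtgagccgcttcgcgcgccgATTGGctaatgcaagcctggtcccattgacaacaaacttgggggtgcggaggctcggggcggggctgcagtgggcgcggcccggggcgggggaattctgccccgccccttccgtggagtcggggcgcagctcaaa

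In the Hmgcs1 stretch the sterol element starts 137 bases before the gene start, and in Srebf2 it starts 162 bases before it. The promoters of Mvk and Nsdhl hold no match to these letters in this window, while Mvk holds 5 NF-Y boxes. Of the 24 members with an entry in the table, 3 (Hmgcs1, Msmo1 and Srebf2) hold the short form, which 4.2% of 27025 genes with an entry hold. A longer form that contains it, TCACNCCAC, was found in Hmgcs1 alone among the members and in 1.22% of all genes. The NF-Y box was present in 21 of the 24, against 37.5% of all genes, and the GC box GGGCGG in 20 of the 24, against 35.4%. A match is a string of letters and was not shown to be a binding site.

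The libraries held between 79081889 and 79691824 counts in PS-MP and between 68357478 and 112566641 in control. The 29 genes together took 0.150%, 0.184% and 0.173% of all counts in PS-MP, against 0.180%, 0.125% and 0.186% in control, so the groups overlapped. Control replicate 2 stood apart in ribosomal RNA, with 11.2% of its counts from Rn18s-rs5 where the other libraries had 0.387% to 2.92% (1.14%, 0.599% and 0.387% in PS-MP, 2.92% and 1.15% in the other control libraries). The diets did not overlap in it, but PS-MP replicate 1 and control replicate 3 were nearly equal. Hepatocyte markers summed to 65400 to 85908 CPM (counts scaled to library size) in PS-MP and 62033 to 75201 CPM in control, with none of the 8 markers at 0, as the label liver calls for. Markers of Kupffer cells and other macrophages summed to 89.3 to 101 CPM in PS-MP and 61.7 to 82.5 CPM in control without overlap; 5 of these 6 markers did not overlap and were higher in PS-MP, as 6.24% of all genes were, and none was at 0. None of the 6 passed over all genes by edgeR (1 had an unadjusted p under 0.05; the smallest adjusted p was 0.903), DESeq2 or limma-voom (0 each). Adipocyte markers (2210 to 3561 CPM in PS-MP, 2494 to 3585 CPM in control, with up to 4 of 7 at 0 in a library), endothelial and stellate markers (291 to 365 CPM in PS-MP, 326 to 334 CPM in control) and lymphocyte markers (3.99 to 10.4 CPM in PS-MP, 6.10 to 10.1 CPM in control) overlapped in their sums. Of the 4 adipocyte markers that passed the filter, 1 was lower in every PS-MP library, and DESeq2 called 1 where edgeR called 0 (smallest adjusted p = 0.767). The log2 fold changes of these 4 ran from -7.41 to 1.03, so the overlap of the sums did not hold for every marker. The adipocyte list includes Car3 and had up to 4 of 7 markers at 0, so its sum was not taken as a measure of adipocyte content. The part of cell makeup and ribosomal RNA in the results on the members was not tested, and in pieces of liver fewer cells of a type and less RNA per cell cannot be told apart.

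The members did not pass the test between diets. With the quasi-likelihood test of edgeR, 0 of the 29 had an adjusted p under 0.05 over all genes, where 0.0113% of all genes tested did, and the smallest adjusted p was 0.806, for Hmgcs1. DESeq2 also called 0 of the 29 (1.06% of all genes) and limma-voom 0 (0.00566%). Without adjustment, 2 members (Hmgcs1 and Nsdhl) were lower in PS-MP at p under 0.05, where 2.58% of all genes were, and 1 (Mvk) was higher, where 2.8% were. The fold change, PS-MP minus control on the log2 scale, was below zero for 18 of 29 members (47.2% of all genes), with a median of -0.09 over the members and 0.02 over all genes. Among the 22 SREBP2 targets 16 were below zero and the median was -0.24, while of the 7 other members 2 were below zero and their median was 0.05. With counts scaled by library size alone the median of all genes moved to 0.23, that of the members to 0.12, that of the targets to -0.02, and 11 targets were below zero; relative to all genes the targets lay at -0.26 with either scaling. That value rests on single libraries: leaving out PS-MP replicate 1 gave -0.10, PS-MP replicate 2 -0.34 and PS-MP replicate 3 -0.16, while leaving out control replicate 1 gave -0.16, control replicate 2 -0.39 and control replicate 3 -0.07. The 95% interval lay inside a 2-fold change for 15 members, where it did for 53.6% of all genes.

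**Figure D1:**
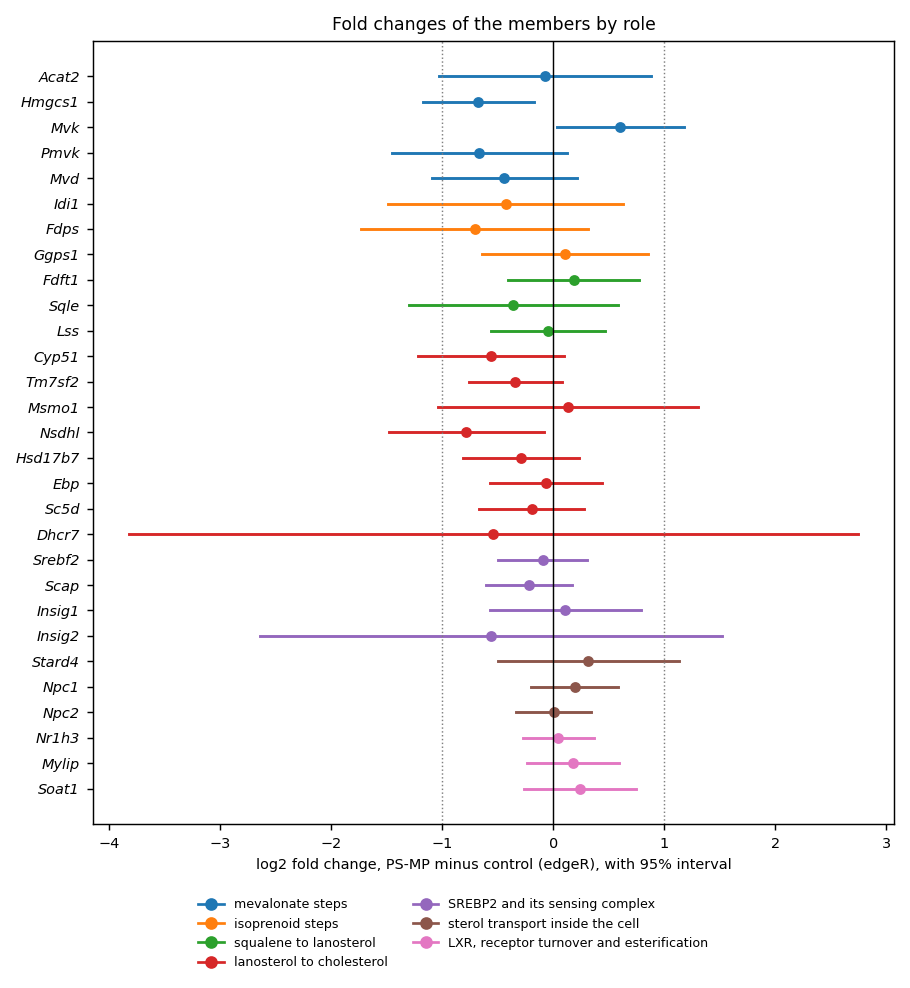
Log2 fold change, PS-MP minus control, of each of the 29 members (points) with its 95% interval from edgeR (lines), coloured by role; dotted lines stand at -1 and 1, a 2-fold change. The intervals of Hmgcs1 and Nsdhl lie below zero, that of Mvk above it, and those of Dhcr7 and Insig2 are the widest.

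How many members separated the diets turned on single libraries. With all 6 libraries, 1 member (Hmgcs1) had all its PS-MP libraries below its control libraries, as 4.99% of all genes were, and 1 (Mvk) was higher in every PS-MP library, as 6.24% were. Without control replicate 2, the library rich in ribosomal RNA, the members below every control library numbered 11 (14.4% of all genes), among them Acat2, Pmvk, Mvd, Fdps, Cyp51, Tm7sf2, Nsdhl and Srebf2, and 7 had an unadjusted p under 0.05 on the lower side (3.81% of all genes). Without PS-MP replicate 3 the corresponding numbers were 7 (11.4% of all genes) and 5 (3.84%). Members lower at that threshold numbered 1 on leaving out PS-MP replicate 1 (1.99% of all genes), PS-MP replicate 2 (2.09%) or control replicate 1 (2.07%), and 0 on leaving out control replicate 3 (1.97%). In none of these fits did a member pass after adjustment; the smallest adjusted p by edgeR was 0.458, for Nsdhl without control replicate 2.

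The first steps, which lead to mevalonate and its phosphates, held both members whose libraries did not overlap, Hmgcs1 (lower) and Mvk (higher). Over all genes, 4.99% were lower and 6.24% higher in this way. Hmgcs1, which encodes the cytosolic synthase that makes HMG-CoA, had 49.4, 74.5 and 79.7 CPM in PS-MP, against 98.3, 102 and 124 CPM in control. Every PS-MP library was thus below every control library, with means of 67.8 ± 16.2 CPM in PS-MP and 108 ± 13.998 CPM in control (SD, n = 3 each). The log2 fold change was -0.67 (SE 0.21, interval -1.17 to -0.17, edgeR adjusted p = 0.806), and it lay between -0.82 and -0.49 with a library left out. Without control replicate 3 its interval reached zero. An antisense gene, Gm48342, overlaps 12.1% of the exon bases of Hmgcs1 and had at most 10 counts in a library.

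Mvk, the kinase that phosphorylates mevalonate, had a level of 5.88, 4.67 and 4.43 CPM in PS-MP, against 2.91, 2.81 and 4.13 CPM in control. The groups did not overlap, though PS-MP replicate 3 and control replicate 3 lay close together. Its log2 fold change was 0.60 (SE 0.24, interval 0.03 to 1.17, edgeR adjusted p = 0.921). Of the fits with a library left out, that without control replicate 3 alone kept an unadjusted p under 0.05, and the fold change ranged from 0.47 to 0.80.

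The next kinase gene, Pmvk, had 15.6, 15.8 and 22.4 CPM in PS-MP, against 42.5, 18.7 and 24.0 CPM in control. Control replicate 1 was far above the other 5 libraries, and without it the log2 fold change of -0.66 (SE 0.33, edgeR adjusted p = 0.931) was -0.25. Mvd, the decarboxylase that yields isopentenyl diphosphate, ranged from 3.36 to 4.45 CPM in PS-MP and from 3.63 to 6.70 CPM in control (log2 fold change -0.44, SE 0.27). Acat2, whose product joins acetyl-CoA units, had 88.4, 91.6 and 97.0 CPM in PS-MP, against 129, 40.9 and 121 CPM in control. Its PS-MP libraries lay between the control libraries, and the log2 fold change was -0.07 (SE 0.40). It was -0.44 without control replicate 2 (edgeR adjusted p = 0.479) and 0.19 without control replicate 1. Acat3, a neighbouring copy with 97.7% identity over 1477 bases of the Acat2 transcript, had 113, 5.33 and 9.16 CPM in PS-MP, against 72.9, 9.16 and 44.0 CPM in control, so the split of reads between the copies is uncertain.

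Isoprenoid genes were as uneven. Idi1, the isomerase of isopentenyl diphosphate, had 7.16, 24.2 and 20.02 CPM in PS-MP, against 16.7, 25.2 and 27.2 CPM in control. PS-MP replicate 1 was low and the other 5 libraries overlapped. The log2 fold change was -0.43 (SE 0.44, edgeR adjusted p = 0.9998), and -0.06 without that library. Idi1 has pseudogenes of 100%, 97.7% and 90.6% identity, each over 22.4% to 22.6% of its transcript, so its count is uncertain. Fdps, which makes farnesyl diphosphate, had 31.5, 50.6 and 53.0 CPM in PS-MP, against 115, 35.5 and 69.7 CPM in control. Control replicate 1 was highest and control replicate 2 lay within the PS-MP range (log2 fold change -0.71, SE 0.43; -0.23 without control replicate 1). Fdps has processed pseudogenes, of which Gm3571 (98.9% identity over 1062 bases) took 34 to 193 counts in a library, and shares 26.7% of its exon bases with Gm43738 on the same strand, so some of its reads may be counted elsewhere. Ggps1, which makes geranylgeranyl diphosphate for protein prenylation, had a log2 fold change of 0.11 (SE 0.31) with ranges of 4.61 to 7.49 CPM in PS-MP and 4.34 to 8.10 CPM in control. Its pseudogene Gm5630 (97.2% identity over 21.3% of the transcript) took 2 to 5 counts in a library.

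The steps from squalene to lanosterol overlapped between diets in all 3 genes. Fdft1, squalene synthase, had 71.4, 87.8 and 55.3 CPM in PS-MP, against 62.4, 46.8 and 79.3 CPM in control (log2 fold change 0.19, SE 0.25). Ctsb, an abundant gene on the opposite strand, overlaps 18.3% of the exon bases of Fdft1, and without a stated strand setting their shared reads cannot be told apart. The Fdft1 pseudogene Gm6781 (97.4% identity over 33.8% of the transcript) took 19 to 61 counts in a library. Sqle, the squalene epoxidase that is a second control point of the pathway, had 5.38, 11.5 and 10.8 CPM in PS-MP, against 11.4, 7.42 and 16.8 CPM in control. PS-MP replicate 1 was its lowest library and control replicate 3 its highest, and the log2 fold change was -0.36 (SE 0.39, edgeR adjusted p = 0.9998). Lss, lanosterol synthase, had 13.7, 20.2 and 14.5 CPM in PS-MP, against 18.2, 13.3 and 18.5 CPM in control, and a log2 fold change of -0.05 with an interval inside 2-fold (-0.56 to 0.47).

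From lanosterol to cholesterol, 7 of 8 genes had a fold change below zero (47.2% of all genes) and none passed. With library size alone, Ebp (0.13) and Sc5d (0.03) moved above zero. Nsdhl, a dehydrogenase of the C4 demethylation, had 17.1, 20.6 and 26.0 CPM in PS-MP, against 47.9, 23.4 and 38.3 CPM in control. The 3 PS-MP libraries and control replicate 2 were low while control replicates 1 and 3 were high. Its log2 fold change was -0.78 (SE 0.29, interval -1.48 to -0.09, edgeR adjusted p = 0.902), from -1.02 without control replicate 2 to -0.54 without control replicate 1. An unadjusted p under 0.05 was kept without PS-MP replicate 3 or control replicate 2, and lost without any other library or with library size alone (-0.58). Cyp51, the lanosterol demethylase, had 24.7, 39.0 and 49.9 CPM in PS-MP, against 61.1, 44.7 and 61.6 CPM in control. Here PS-MP replicate 3 was above control replicate 2, and the log2 fold change was -0.56 (SE 0.27, edgeR adjusted p = 0.928). Tm7sf2, a sterol reductase, ranged from 103 to 133 CPM in PS-MP and from 118 to 162 CPM in control (log2 fold change -0.34, SE 0.17), and shares 12.1% of its exon bases with Vps51 on the same strand.

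Msmo1, the methyl oxidase that precedes Nsdhl in the demethylation, had 45.3, 89.8 and 36.4 CPM in PS-MP, against 48.2, 26.1 and 82.1 CPM in control, and the highest library of each diet was over 2-fold the lowest of that diet. The log2 fold change was 0.13 (SE 0.49, interval -1.04 to 1.30), and it turned to -0.35 without PS-MP replicate 2. Hsd17b7, the keto reductase of the same cycle, ranged from 25.8 to 36.9 CPM in PS-MP and from 32.6 to 50.1 CPM in control (log2 fold change -0.29, SE 0.22). Ebp, the sterol isomerase, ranged from 131 to 174 CPM in PS-MP and from 126 to 203 CPM in control (-0.07, SE 0.21). Sc5d, the C5 desaturase, ranged from 133 to 203 CPM in PS-MP and from 158 to 206 CPM in control (-0.20, SE 0.20; 0.03 with library size alone). The intervals of these 3 genes lay inside a 2-fold change.

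Dhcr7, the reductase that makes cholesterol from 7-dehydrocholesterol, was nearly absent in 1 library of each diet. Its counts were 1341, 1613 and 57 in PS-MP, against 2319, 43 and 1951 in control. In CPM this was 16.3, 18.3 and 0.666 in PS-MP, against 31.9, 0.706 and 18.4 in control. PS-MP replicate 3 and control replicate 2 were low and the other 4 libraries high, a 48.0-fold span that did not follow diet. The interval of its log2 fold change of -0.54 ran from -3.82 to 2.74, so large changes in either direction lay within it.

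**Figure D2:**
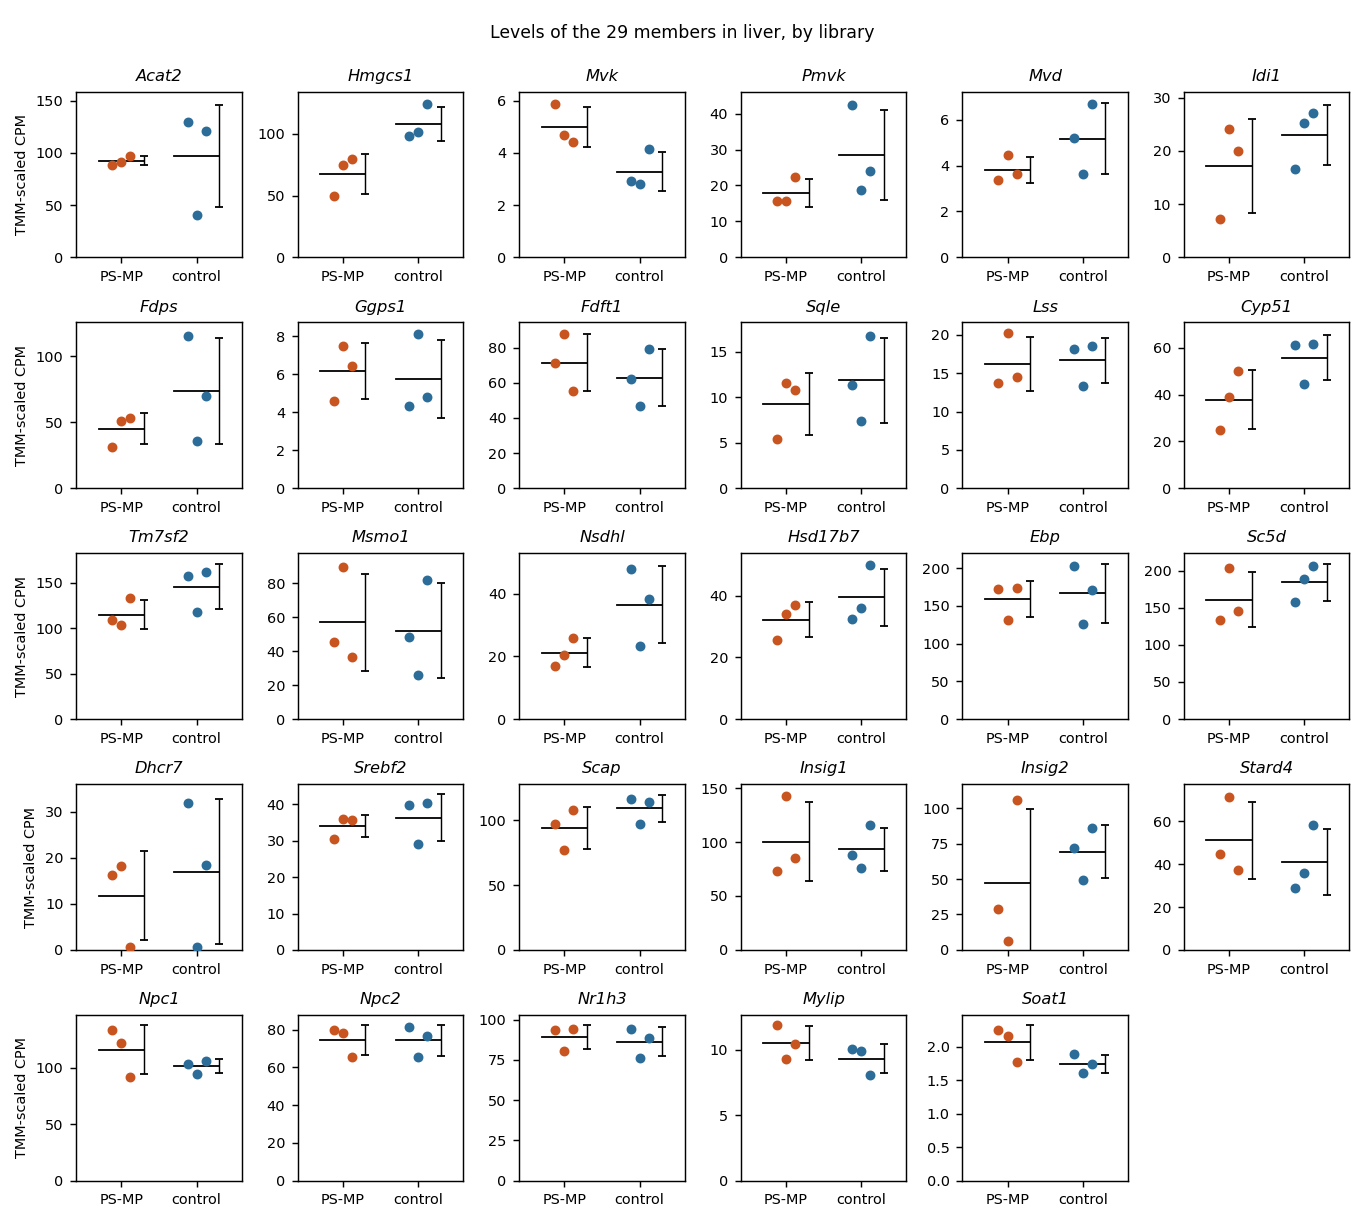
TMM-scaled CPM of each member on a linear axis from 0, with 1 point per library (PS-MP left, control right), the mean as a line and the SD as an error bar, n = 3 each; a bar that would pass below 0 ends there. Hmgcs1 and Mvk are the members whose points do not overlap between diets, and Dhcr7 has 1 library near 0 on each side.

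Srebf2 and its escort gene Scap varied little. Srebf2 had 30.6, 36.0 and 35.9 CPM in PS-MP, against 39.7, 29.1 and 40.4 CPM in control, so the PS-MP libraries lay within the control range. The log2 fold change was -0.09 (SE 0.17, interval -0.49 to 0.31), and 0.12 with library size alone. Scap had 97.0, 76.9 and 108 CPM in PS-MP, against 116, 97.2 and 114 CPM in control (log2 fold change -0.21, SE 0.16, interval -0.60 to 0.17). For both genes a 2-fold change lay outside the interval; these are RNA levels and say nothing of how much SREBP2 was cut or in the nucleus.

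The sensor genes differed from each other. Insig1, itself an SREBP2 target that closes a feedback loop, had 73.5, 142 and 85.5 CPM in PS-MP, against 88.4, 75.6 and 115 CPM in control. PS-MP replicate 2 was the highest and the groups overlapped; the log2 fold change was 0.11 (SE 0.29, interval -0.57 to 0.79), and -0.22 without that library. Insig2, which does not depend on SREBP2 in the same way, had 28.6, 6.23 and 106 CPM in PS-MP, against 72.3, 49.1 and 86.3 CPM in control. It spanned 17.0-fold over the libraries, and the lowest and the highest library were both PS-MP. Its log2 fold change was -0.56 (SE 0.87, interval -2.64 to 1.52, edgeR adjusted p = 0.9998), from -2.003 without PS-MP replicate 3 to -0.03 without PS-MP replicate 2.

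Insig2 is known in mouse liver as a gene under the circadian repressor REV-ERB alpha (Nr1d1), so its levels were set beside clock genes, a comparison chosen after its values were seen. PS-MP replicates 1 and 2, the 2 libraries lowest in Insig2, were also lowest in the clock activator gene Npas2, at 0.619 and 0.227 CPM, where PS-MP replicate 3 had 4.204 CPM and control had 4.39, 2.81 and 0.983 CPM. The clock gene Arntl did not match in this way, with 3.96, 1.33 and 8.14 CPM in PS-MP, against 11.9, 13.1 and 3.37 CPM in control. For Arntl, control replicate 3 was below PS-MP replicate 1. The clock output gene Dbp had 35.7, 78.2 and 0.911 CPM in PS-MP, against 2.01, 2.23 and 44.3 CPM in control. Control replicate 3 thus shared high Dbp with PS-MP replicates 1 and 2, yet its Insig2 level was the second highest. Nr1d1 had 115, 65.1 and 34.0 CPM in PS-MP, against 49.5, 50.7 and 105 CPM in control, with the same exception. Of 12 clock genes measured, 0 passed over all genes by edgeR (0 by DESeq2, where 1.06% of all genes were called, and 0 by limma-voom). At an unadjusted p under 0.05, 0 were lower (2.58% of all genes) and 1, Per2, was higher (2.8%), while Clock was the 1 gene whose libraries did not overlap, lower in PS-MP (4.99% of all genes). The labels give no hour of sampling, and the part of the clock in the levels of the members was not tested.

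**Figure D3:**
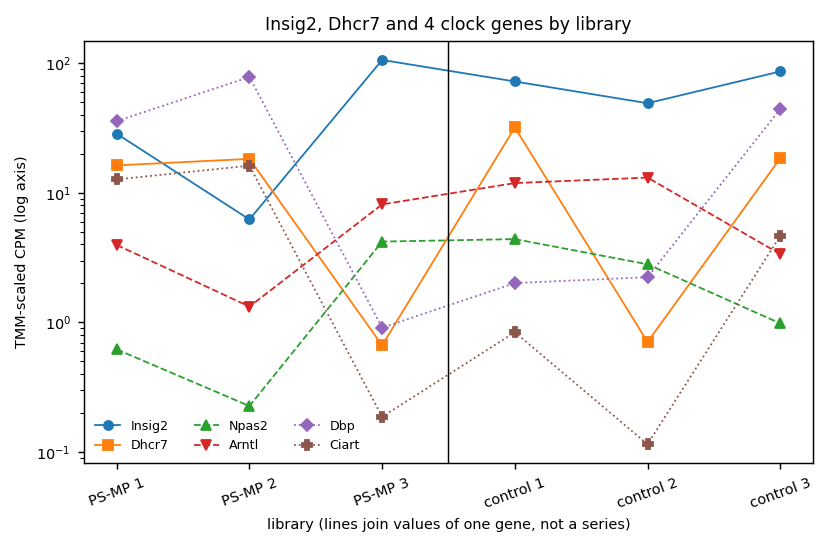
TMM-scaled CPM (log axis) of Insig2, Dhcr7 and the clock genes Npas2, Arntl, Dbp and Ciart in each library, PS-MP left of the line and control right; lines only join the values of a gene. Libraries of both diets differ over 10-fold in Dbp, and Dhcr7 is near its lowest level in PS-MP replicate 3 and control replicate 2.

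Of the genes of sterol transport and disposal, none passed the test. Stard4, a carrier of cholesterol between membranes, had 44.6, 71.3 and 37.3 CPM in PS-MP, against 28.7, 35.8 and 58.4 CPM in control (log2 fold change 0.32, SE 0.34), and -0.00 without PS-MP replicate 2. Npc1, the membrane protein that exports cholesterol from lysosomes, had 134, 122 and 92.1 CPM in PS-MP, against 103, 94.0 and 106 CPM in control. PS-MP replicate 3 was its lowest library and PS-MP replicates 1 and 2 its highest (0.20, SE 0.16). Npc2, the soluble partner of NPC1, had almost equal means, with 65.6 to 80.0 CPM in PS-MP and 65.4 to 81.3 CPM in control (0.00, interval -0.33 to 0.34).

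Nr1h3, which encodes LXR alpha, had 93.5, 80.4 and 94.0 CPM in PS-MP, against 94.1, 76.3 and 88.7 CPM in control. The log2 fold change was 0.05 with the interval -0.27 to 0.37, which is inside a 2-fold change. Mylip, a ubiquitin ligase induced by LXR that sends lipoprotein receptors to breakdown, had 11.9, 9.32 and 10.4 CPM in PS-MP, against 10.0, 9.89 and 8.09 CPM in control (0.17, SE 0.17). Soat1, which esterifies cholesterol and is prominent in macrophages, had 2.26, 2.16 and 1.78 CPM in PS-MP, against 1.89, 1.61 and 1.74 CPM in control (0.24, SE 0.21). These groups overlapped, and the intervals of Nr1h3, Mylip and Soat1 lay inside a 2-fold change. The macrophage markers given above were higher in PS-MP beside Soat1, and their part in its level was not tested.

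Agreement among the SREBP2 targets was looked at library by library, as each target's log2 CPM minus its mean over the 6 libraries. The median of the 22 targets was -0.34, 0.13 and 0.01 in PS-MP, against 0.19, -0.27 and 0.39 in control. Low libraries were thus found in each diet, PS-MP replicate 1 and control replicate 2, and the spread within a diet was wider than the difference between diets. Over all genes tested the same medians lay between 0.00 and 0.05. Targets above their own median numbered 4, 13 and 10 of 22 in PS-MP, against 15, 5 and 19 of 22 in control.

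Each target has its lowest level in 1 library only, so the targets named here for different libraries cannot overlap. Some targets were below their mean in both PS-MP replicate 1 and control replicate 2, such as Sqle (-0.88 and -0.42) and Fdps (-0.77 and -0.60). Others were below it in PS-MP replicate 1 but above it in control replicate 2, such as Hmgcs1 (-0.77 and 0.27) and Idi1 (-1.36 and 0.45). The lowest level of 11 of the 22 targets fell in PS-MP replicate 1 (all genes had 13.3% of their lowest levels there), namely Hmgcs1, Pmvk, Mvd, Idi1, Fdps, Sqle, Cyp51, Nsdhl, Hsd17b7, Sc5d and Insig1. Another 7 had their lowest level in control replicate 2 (31.8%, against 20.2% of all genes), namely Acat2, Mvk, Fdft1, Lss, Msmo1, Ebp and Srebf2. Control replicate 3 held the highest level of 9 targets (40.9%, against 13.5% of all genes) and the lowest of 0. Targets highest in PS-MP replicate 2 were Fdft1, Lss, Msmo1, Insig1 and Stard4, while those highest in control replicate 1 were Acat2, Pmvk, Fdps, Nsdhl, Ebp and Dhcr7. The targets share each library, so these counts describe 6 libraries and are not repeats of a diet effect.

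**Figure D4:**
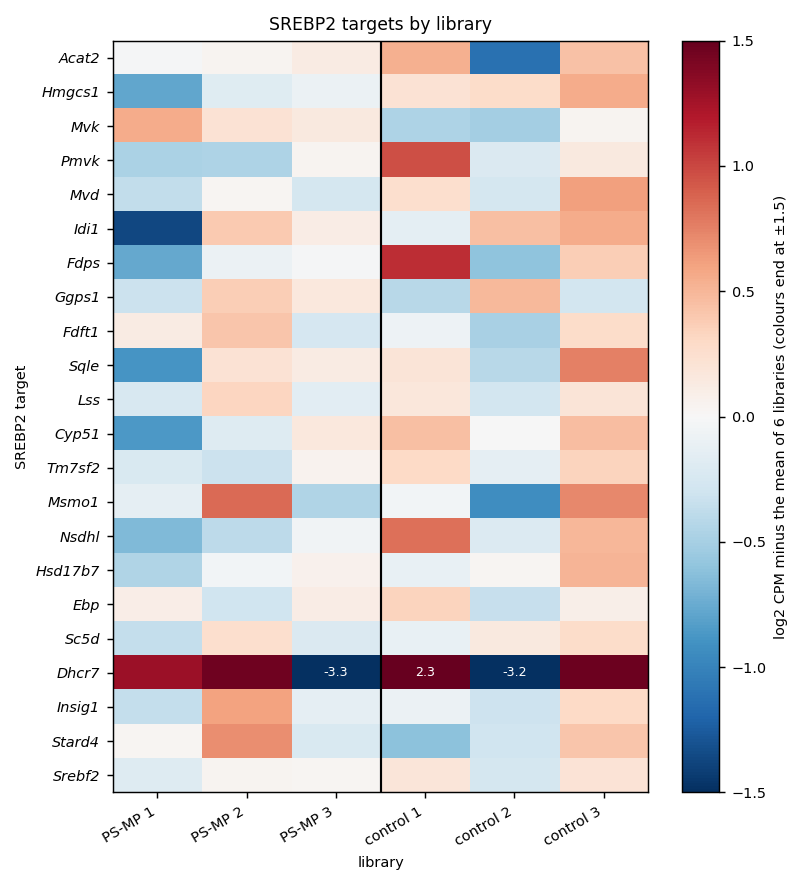
Log2 CPM of each SREBP2 target minus its mean over the 6 libraries, as colour, with PS-MP libraries left of the line and control right; colours end at 1.5 in each direction and larger deviations are written in where they exceed that. PS-MP replicate 1 is the lowest library for 11 targets and control replicate 3 has no lowest value.

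**Figure D5:**
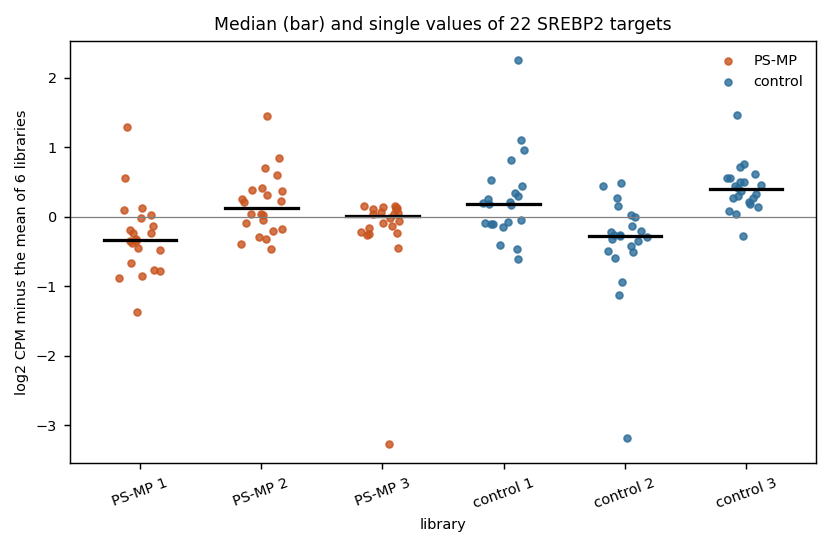
The same deviations as points, 22 per library, with the median as a bar (PS-MP left, control right). Medians run from -0.34 in PS-MP replicate 1 to 0.39 in control replicate 3, and those of the diets interleave.

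The highest library was 1.94-fold the lowest for the median member and 2.29-fold for the median SREBP2 target, against 1.92-fold for the median of all genes tested. More than a 3-fold span was seen in 7 of 29 members (24.1%) and in 27.3% of the targets, against 27.8% of all genes. For 2 members, Hmgcs1 and Mvk, the difference of the diet means in log2 CPM exceeded the range within each diet, which held for 5.28% of all genes.

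Other genes around the pathway were taken from lists chosen by name. The 4 lists, of 44 genes, cover SREBP processing, acetyl-CoA and electron supply, isoprenoid branches, and sterol ester and efflux. None of the 44 passed over all genes by edgeR (smallest adjusted p = 0.805), where 0.0113% of all genes did, and DESeq2 and limma-voom called 0. At an unadjusted p under 0.05, 3 were lower (2.58% of all genes) and 2 were higher (2.8%). Every PS-MP library was below every control library in 4 of the 44 (4.99% of all genes), namely Lipa, Mbtps1, Sec24d and Nceh1. The log2 fold changes of the last 3 were -0.14 (SE 0.12), -0.25 (SE 0.12) and -0.25 (SE 0.14). Every PS-MP library was above every control library in 2, Abcg1 and Gramd1b (6.24% of all genes). The median log2 fold change of the 44 was -0.07, where that of all genes was 0.02. The interval lay inside a 2-fold change for 31 of 44, a larger share than the 53.6% of all genes. Their intervals were narrower, with a median width of 0.97 in log2, against 1.37 over all genes. Lipa, the lysosomal lipase that frees cholesterol from esters, had 178, 178 and 233 CPM in PS-MP, against 343, 253 and 292 CPM in control, without overlap (log2 fold change -0.59, SE 0.18, edgeR adjusted p = 0.805). Soat2, the esterifying enzyme of hepatocytes, had 3.87, 7.49 and 5.62 CPM in PS-MP, against 6.89, 16.9 and 17.3 CPM in control, with overlap through control replicate 1 (-1.27, SE 0.41, edgeR adjusted p = 0.831).

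Cyb5r3, an electron donor to sterol oxidases, had a log2 fold change of -0.53 (SE 0.21), with 384 to 433 CPM in PS-MP and 427 to 722 CPM in control. On the higher side, the LXR target Abcg1 had 4.66, 4.995 and 5.28 CPM in PS-MP, against 3.94, 3.70 and 3.56 CPM in control (0.42, SE 0.17, edgeR adjusted p = 0.923). Gramd1b, a carrier of cholesterol from the plasma membrane, had 1.81, 1.72 and 1.66 CPM in PS-MP, against 1.10, 1.12 and 1.08 CPM in control (0.65, SE 0.20, edgeR adjusted p = 0.805). Neither gene overlapped between diets. The macrophage markers given above were also higher in PS-MP, and their part was not tested. Of the 13 genes in the sterol ester and efflux list, 6 had a log2 fold change above zero and 7 below. Abca1, of that list, was at 0.02 (SE 0.20). Also named, whatever their values, were Srebf1 at -0.52 (SE 0.27), Acss2 at -0.74 (SE 0.33), Tmem97 at -0.39 (SE 0.69), Abcg5 at 0.29 (SE 0.44) and Abcg8 at -0.16 (SE 0.13), all log2 fold changes whose intervals include zero.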

How the data were processed

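Liver RNA was measured in 6 libraries, 3 from PS-MP mice and 3 from control mice. Per the labels, poly(A) RNA went into a directional library kit. bcl2fastq and GRCm39 are named in the submitters' processing notes, while aligner, counter, annotation and strand setting were not given in the sources used here. Per the labels and values, the deposited files hold raw read counts by gene symbol. A deposited table of the whole series repeats these counts in 6 further columns and was not used.

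Rows sharing a symbol (67 symbols, no member among them) were added up. Genes were filtered by filterByExpr, scaled by TMM and tested between diets by edgeR 4.0.16 (quasi-likelihood F test) in R 4.3.3, with Benjamini-Hochberg adjustment over all 17662 genes tested. Intervals are 95%, from the SE and 6.63 moderated degrees of freedom, and levels are CPM with TMM scaling. Per-library log2 CPM used a prior count of 2. DESeq2 1.42.0, limma-voom (limma 3.58.1), other scalings and filters, the replicate number as a block and each library left out in turn were alternatives. The fit was tested on simulated data. Exon overlaps and near-identical copies came from GENCODE on an earlier build, by name only, where all 29 members were found.

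All members were named. Values in every library were given by rule to members with an unadjusted p under 0.05, those without overlap, and a fixed list. Pmvk and Acat2 met none of these and were given in every library outside the rule. Members, lists and tests were chosen with earlier results of these data known.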

Additional observations from a re-analysis of the deposited data

How the results depend on the processing

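No member passed after adjustment under any of the 14 alternatives (0 called by edgeR in each fit, by DESeq2 and by limma-voom; smallest adjusted p = 0.359, for Hmgcs1 with DESeq2), nor at an adjusted p under 0.1. The medians of the members and of the SREBP2 targets moved by less than the SD between libraries (0.218 and 0.296 in log2), also without Dhcr7, an alternative chosen after the data were seen. The median of the targets, -0.24, was nevertheless -0.08 on leaving out PS-MP replicate 1, -0.36 on leaving out control replicate 2 and -0.07 on leaving out control replicate 3 (lowest -0.36, highest -0.07), and that of the members -0.23 to -0.02. With library size only the median of the members changed sign, to 0.12, as that of all genes moved to 0.23. Members lower at an unadjusted p under 0.05 numbered 2 (2.58% of all genes), but 0 with library size only. With a library left out they numbered 0 to 7, where 1.97% to 3.84% of all genes were lower at that threshold. Members higher at it numbered 1 (2.8% of all genes), but 0 with the replicate block. With a library left out these were 0 to 1, against 1.87% to 5.33% of all genes. Members with every PS-MP library below every control library numbered 1 to 11 with a library left out (8.02% to 14.4% of all genes). Those with every PS-MP library above every control library numbered 1 to 3 (9.07% to 15% of all genes). Library size only gave 3 members above, with the median of all genes at 0.23, and no share over all genes is given for that scaling. The sign of the fold change was the same in all 14 alternatives for 17 of 29 members; Sc5d and Srebf2 changed sign with library size only, and Insig1 without PS-MP replicate 2, by over 1 SE. Fits without a library kept the genes tested, and a diet left with 2 libraries shared its spread estimate with the other.

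The labels do not say that replicate numbers pair the libraries. Residuals of same-numbered libraries correlated at 0.11, 0.14 and -0.13 across genes, and those of differently numbered ones at -0.19 to 0.10. With 3 libraries per diet these values cannot decide whether libraries were paired. With the replicate block the number lower at an unadjusted p under 0.05 stayed 2, but these were Hmgcs1 and Tm7sf2, with Nsdhl and, on the higher side, Mvk no longer there. In that fit the median of the targets was -0.25 and 0 members passed.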
